A study of Rattus norvegicus with 9 samples.

Results

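A set of 50 genes of the rat dorsal root ganglion (DRG) whose transcript usage differed between sham and nerve-injured animals is described here. For each of the 9 libraries, the FPKM of a transcript (mapped fragments scaled for transcript length and library size) was divided by the summed FPKM of all transcripts of its gene, which gives the transcript's share. A gene entered the set when its summed FPKM was at least 5 in all 9 libraries and the mean share of 1 of its transcripts differed by at least 25 percentage points between sham and SNI, with the 3 values of one group all above the 3 values of the other. Of 20194 genes, 8688 reached the FPKM limit, 5144 of these had more than 1 transcript, and 50 of the 5144 (0.972%) met the rule through 73 transcripts. The genes were thus chosen by their shares in the sham and SNI libraries, whose differences are described and not tested.

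Bulk RNA of DRG was sequenced in 3 sham, 3 SNI and 3 SNI + G15 samples from adult male Sprague-Dawley rats, with no genetic change labelled. In spared nerve injury (SNI) the tibial and common peroneal nerves are ligated and cut and the sural nerve is left. G15 is an antagonist of the G protein-coupled oestrogen receptor GPER, and it was given intrathecally after SNI. The labels repeat for all 9 samples, sham and SNI included, an intrathecal catheter on day 5, drugs in 2% DMSO and 24 h of injection. The titles call the sham and the SNI samples controls of G15, and what was injected in these rats is not spelled out. The methods describe the DRG of 3 rats per group, while a supplementary animal list gives another number, so p-values measure the spread between these samples. The estimated reads per library summed to between 18484557 and 18756736. As a check of the injury labels, Atf3, a transcription factor of injured neurons, lay at 3.61 to 4.30 FPKM in sham and 138.34 to 143.20 FPKM in SNI and the neuropeptide gene Gal at 8.26 to 10.43 and 247.25 to 274.18 FPKM. The macrophage gene Cd68 lay at 8.07 to 9.50 FPKM in sham and 23.86 to 25.87 FPKM in SNI.

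A gene can give several transcripts, which start at different promoters, include or skip different exons, or end at different polyadenylation sites. The transcripts of a gene can encode proteins that differ in a domain, or the same protein with other untranslated ends. RNA-binding proteins of the splicing machinery set many of these choices in neurons, and a bulk sample also averages over cell types that use different transcripts of the same gene. In bulk ganglia, a change in usage within a cell type and a change in the share of the cell types cannot be told apart, nor can fewer cells of a type and less RNA per cell.

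The transcript with the largest mean difference of each gene is called its lead transcript. Lead transcripts took a larger share in SNI in 23 genes and a smaller share in 27 genes. In the 7 genes with 2 transcripts the 2 differences were equal and opposite, so the lead and its direction were arbitrary there. In 23 genes, 1 transcript met the rule in each direction, and in the other 27 genes a single transcript met it. The median absolute difference of the lead transcripts was 30.0 points between SNI and sham. The same rule, applied to the other pairs of groups, was met by 42 of 5144 genes (0.816%) between SNI + G15 and SNI, and by 36 genes (0.70%) between SNI + G15 and sham. These comparisons share libraries. Among the 19914 transcripts of the eligible genes, the values of the groups did not overlap in 12.5% between SNI and sham, in 10.01% between SNI + G15 and SNI and in 12.2% between SNI + G15 and sham.

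Across all 12017 transcripts tested between SNI and sham, limma on the arcsine-transformed shares called 0 transcripts at an adjusted p of 0.05 (0% of those tested). The smallest adjusted p of that limma fit was 0.0594, and 998 transcripts (8.30%) had an unadjusted p under 0.05. A count-based test, edgeR's diffSpliceDGE, called 12 transcripts, and limma on the untransformed shares called 7. An exact permutation test of a single transcript cannot go below 0.1 with 3 against 3.

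**Figure D1:**
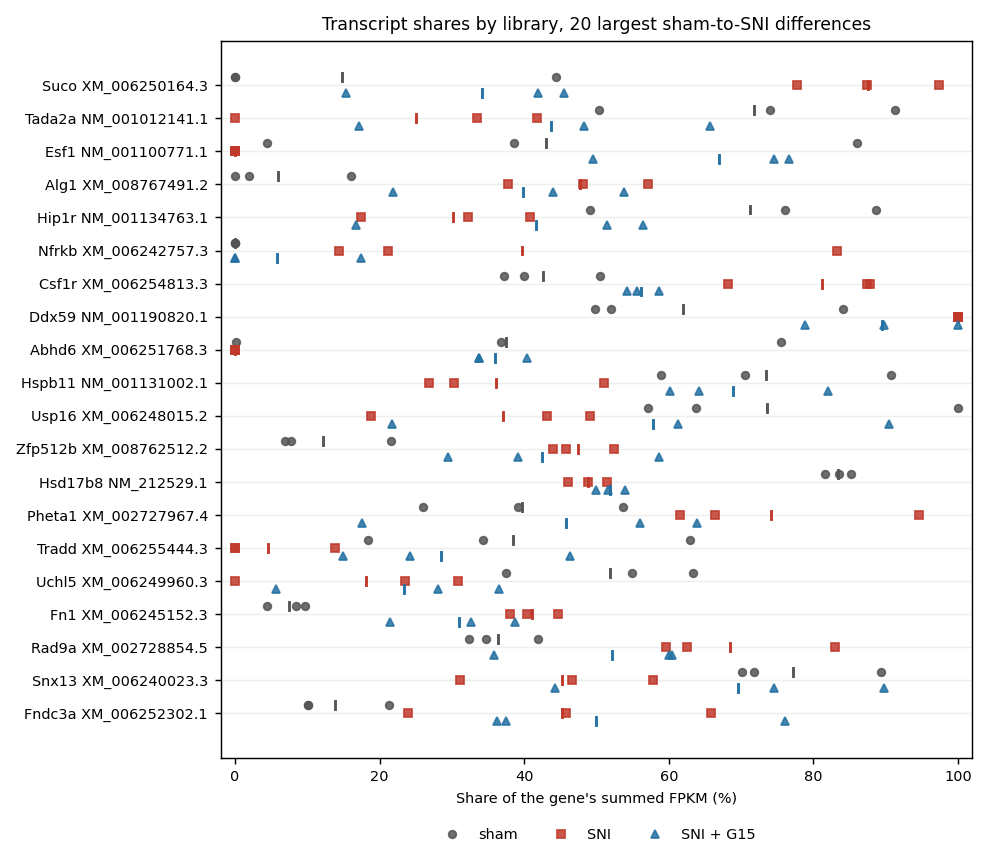
Share of the gene's summed FPKM (%, x axis) in each of the 9 libraries for the lead transcripts of the 20 genes with the largest sham-to-SNI differences; points are libraries and upright bars are group means. Hsd17b8 and Fn1 have tight sham and SNI groups, whereas the sham values of Esf1 and Abhd6 spread over more than 70 points.

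The 50 genes differed widely in how far the libraries of a group agreed. The gap is the distance between the nearest values of sham and SNI, and the range is the distance between the lowest and highest value of a group. The gap was at least 10 points for 22 lead transcripts and under 5 points for 14. For 16 lead transcripts the wider of the sham and SNI ranges exceeded the difference between the group means. In 5 genes (Hsd17b8, Kcnip1, Rabgap1l, Fn1 and Ksr1) the wider range stayed under 10 points, and in 4 genes (Slc18a2, Esf1, Abhd6 and Nfrkb) it exceeded 60 points. Kcnip1, Rabgap1l, Ksr1 and Slc18a2 were singled out after their values were seen. These ranges belong to the values that chose the genes and are a description.

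**Figure D2:**
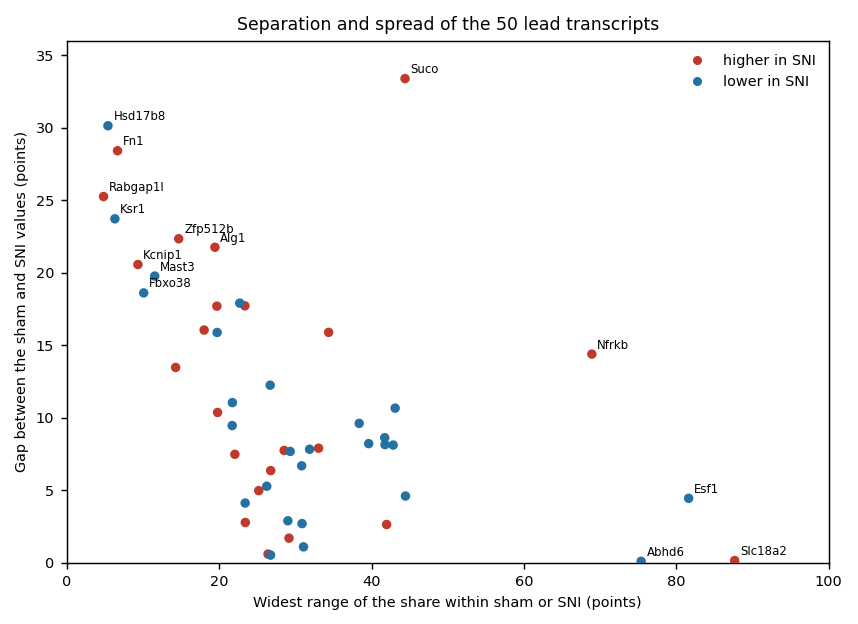
Gap between the sham and SNI shares (percentage points, y axis) against the wider of their ranges (percentage points, x axis) for the 50 lead transcripts, red when higher in SNI and blue when lower. Hsd17b8, Fn1, Rabgap1l, Ksr1 and Kcnip1 lie at the upper left, with gaps above 20 points, and Slc18a2, Esf1 and Abhd6 at the lower right, with gaps under 5 points.

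Hsd17b8 encodes a hydroxysteroid dehydrogenase that can oxidise oestradiol and also works in mitochondrial fatty acid synthesis. Its curated transcript NM_212529.1 held 81.6%, 85.2% and 83.6% of the gene's FPKM in the sham libraries and 51.5%, 46.1% and 48.9% in the SNI libraries. The SNI + G15 libraries gave 54.0%, 51.5% and 49.9%, with a mean 2.97 points above that of SNI. The predicted transcript XM_006255965.3 made up the difference, with 7.41%, 0% and 0% in sham, 31.5%, 34.7% and 41.1% in SNI and 27.7%, 34.1% and 38.4% in SNI + G15. In FPKM, the curated transcript stood at 10.4, 13.3 and 11.4 in sham and 11.3, 9.34 and 9.80 in SNI, so the groups overlapped. The predicted transcript went from at most 0.94 FPKM in sham to 6.91, 7.03 and 8.24 FPKM in SNI. The whole gene lay at 14.0 ± 1.5 FPKM in sham, 20.7 ± 1.0 in SNI and 22.4 ± 1.1 in SNI + G15 (SD, n = 3). The higher level of the gene thus lay with the predicted transcript, whose effective length (the length implied by the deposited counts and FPKM) was 286 bases more than that of the curated transcript.

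Kcnip1 encodes KChIP1, a calcium-binding accessory subunit of Kv4 potassium channels. Both transcripts that met the rule are curated. NM_001261388.1 held 43.7%, 45.6% and 47.9% in sham and 13.0%, 13.6% and 23.3% in SNI. NM_022929.2 held 35.96%, 42.0% and 36.2% in sham and 70.3%, 71.9% and 62.6% in SNI. The order of the 2 transcripts was thus turned in every SNI library, and SNI + G15 had the same order, with 10.1%, 9.17% and 11.9% for NM_001261388.1 and 77.2%, 66.6% and 74.0% for NM_022929.2. Here both transcripts moved in FPKM. NM_001261388.1 lay at 19.7, 22.1 and 21.5 FPKM in sham, at 4.83, 5.08 and 8.29 in SNI and at 3.23, 3.24 and 4.14 in SNI + G15. NM_022929.2 lay at 16.2, 20.4 and 16.3 FPKM in sham, at 26.1, 26.8 and 22.3 in SNI and at 24.6, 23.5 and 25.6 in SNI + G15. The gene as a whole was lower after injury, at 46.2 ± 2.1 FPKM in sham, 36.7 ± 0.92 in SNI and 33.9 ± 1.9 in SNI + G15 (SD, n = 3). The effective lengths of the pair differed by 166 bases.

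Rabgap1l encodes a GTPase-activating protein for Rab proteins of membrane traffic. Its transcript XM_006250108.2 held 30.1%, 34.9% and 35.0% in sham, 60.3%, 60.2% and 61.7% in SNI and 59.5%, 64.99% and 62.5% in SNI + G15. The 3 SNI values lay within 2 points of each other, and those of SNI + G15 overlapped them. In FPKM this transcript stood at 4.23, 4.66 and 4.61 in sham and at 11.9, 13.2 and 13.3 in SNI. The transcript XM_006250105.3, whose effective length was 1956 bases longer, held a mean of 21.9% in sham, 4.52% in SNI and 0.955% in SNI + G15, below the difference that the rule asks for. It was listed at 3.44, 2.90 and 2.58 FPKM in sham, at 1.20, 1.45 and 0.18 in SNI and at 0.59, 0 and 0 in SNI + G15. Rabgap1l as a whole lay at 13.5 ± 0.44 FPKM in sham, 21.1 ± 1.2 in SNI and 19.5 ± 1.1 in SNI + G15 (SD, n = 3).

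Fn1 encodes fibronectin, a matrix glycoprotein whose pre-mRNA is a textbook case of alternative splicing, with extra domains included or left out. The file lists 11 Fn1 transcripts, and 5 of them reached a mean share of 5%. The lead transcript XM_006245152.3 held 8.42%, 4.35% and 9.64% in sham, 44.7%, 38.1% and 40.4% in SNI and 21.4%, 38.7% and 32.6% in SNI + G15. In FPKM it stood at 1.18, 0.57 and 1.36 in sham, at 9.63, 8.04 and 8.84 in SNI and at 6.67, 11.9 and 8.90 in SNI + G15. XM_006245157.3, whose effective length was 354 bases less, held a mean of 28.0% in sham, 5.88% in SNI and 8.55% in SNI + G15. The transcript with the largest sham share, XM_006245156.3, held 42.4% in sham, 34.1% in SNI and 38.4% in SNI + G15, and the whole gene lay at 13.1 to 14.1 FPKM in the sham libraries, 21.1 to 21.9 in those of SNI and 27.3 to 31.1 with G15. XM_006245153.3 held 5.59% in sham and 7.50% in SNI. The lead transcript's FPKM overlapped between SNI and SNI + G15, while that of the whole gene did not.

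Ksr1, listed in the file under the provisional symbol NEWGENE_1308105 and matched to Ksr1 by its gene ID, encodes a scaffold of the Ras and MAP kinase pathway. The lead transcript XM_006246924.3 held 30.2%, 25.9% and 32.2% in sham, 2.21%, 0% and 0% in SNI and 0.178%, 0% and 0% in SNI + G15. It lay at 1.76, 1.33 and 1.73 FPKM in sham and at no more than 0.13 FPKM in any of the other 6 libraries. The whole gene lay at 5.44 ± 0.35 FPKM in sham, 6.13 ± 0.34 in SNI and 5.80 ± 0.15 in SNI + G15 (SD, n = 3). Unlike the lead, its other transcripts spread widely within groups. XM_017597666.1, 26 bases from the lead in effective length, went from 0.09, 0 and 0 FPKM in sham to 1.06, 2.13 and 0.71 in SNI and 0.82, 1.32 and 2.66 in SNI + G15.

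**Figure D3:**
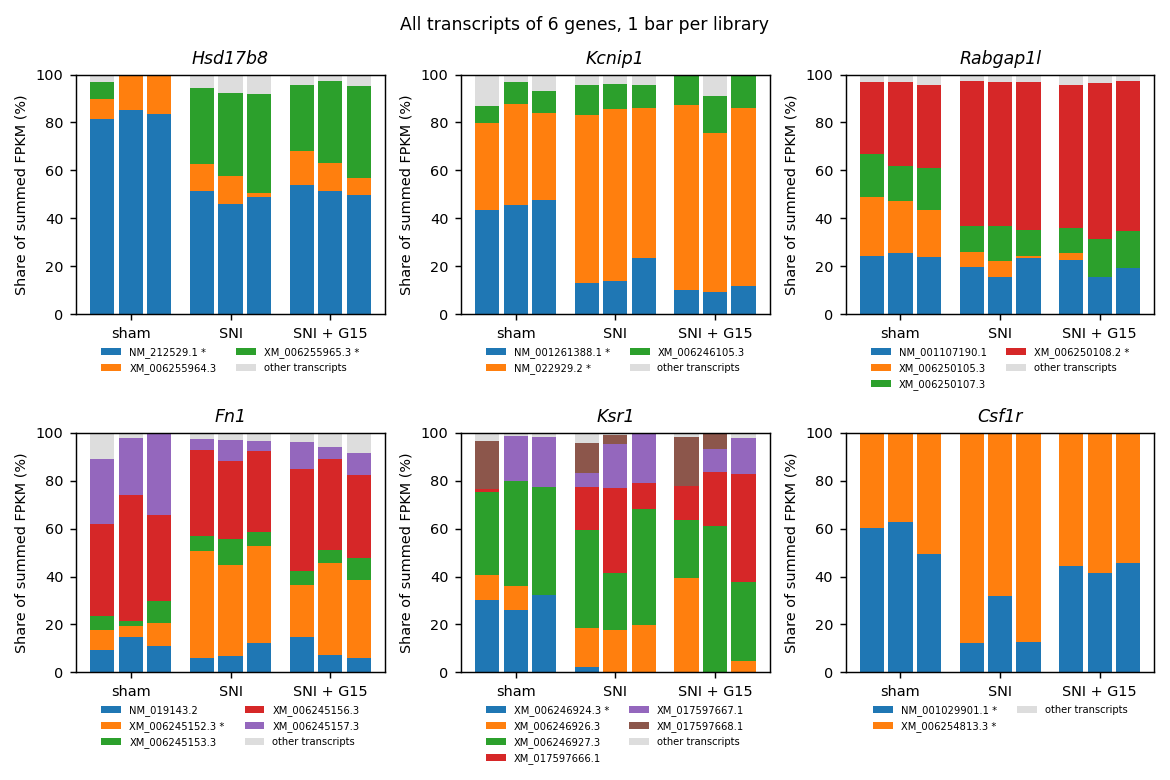
Share of the summed FPKM (%, y axis) of every transcript with a mean share of at least 5% in 6 genes, with 1 bar per library and 3 bars per group; grey holds the remaining transcripts and an asterisk marks transcripts that met the rule. In Hsd17b8, Kcnip1 and Rabgap1l the SNI and SNI + G15 bars look alike, and in Csf1r the SNI + G15 bars lie between the others.

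**Figure D4:**
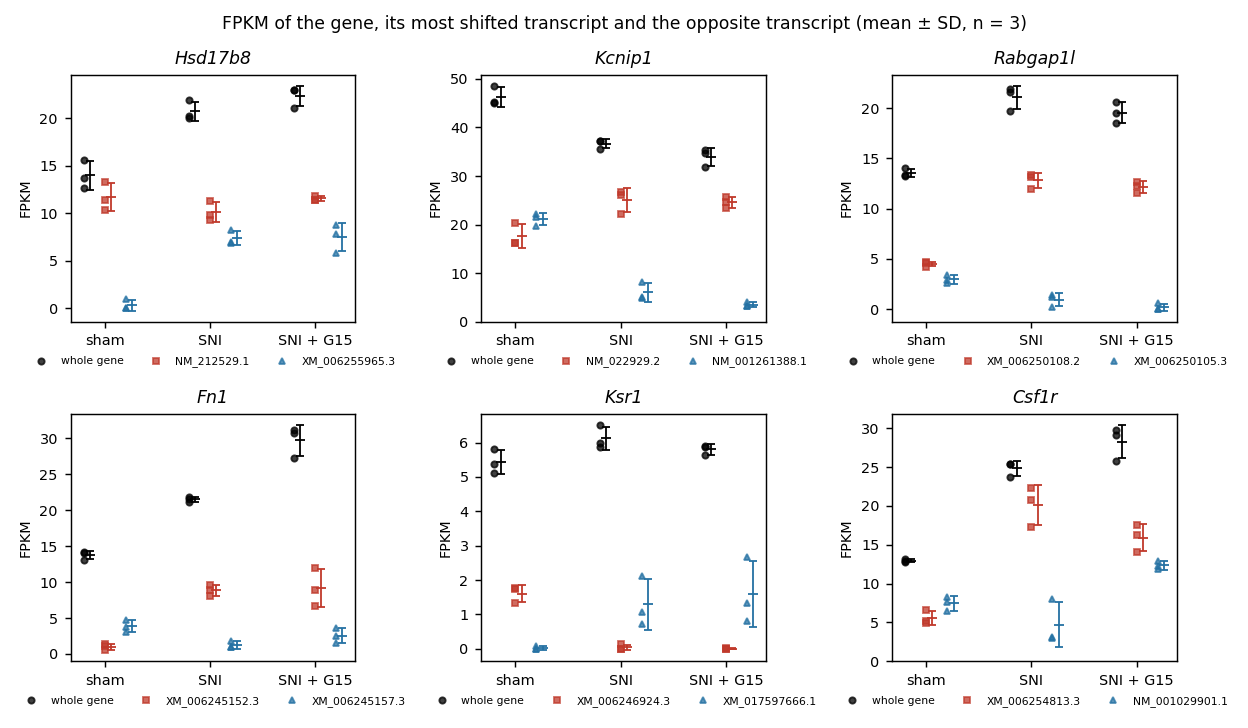
FPKM (y axis) of the whole gene, its lead transcript and the transcript with the largest opposite share change in the same 6 genes; symbols are libraries, and bars give the mean ± SD of 3 libraries. The whole-gene FPKM of Hsd17b8, Rabgap1l, Fn1 and Csf1r is higher in SNI than in sham without overlap, and that of Ksr1 by a narrow margin. That of Kcnip1 is lower, and the Ksr1 lead transcript is at or near 0 after injury.

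Among the glial, immune and matrix genes, Csf1r, the receptor of macrophage colony-stimulating factor, had only 2 transcripts in the file. XM_006254813.3 held 40.0%, 37.2% and 50.5% in sham, 87.9%, 68.2% and 87.5% in SNI and 55.6%, 58.7% and 54.2% in SNI + G15. The 3 groups did not overlap, and the SNI + G15 values lay between the others. In FPKM this transcript went from 5.11, 4.89 and 6.53 in sham to 22.3, 17.3 and 20.8 in SNI and 16.2, 17.5 and 14.0 in SNI + G15, while the curated NM_001029901.1 lay at 7.68, 8.27 and 6.40 in sham, at 3.08, 8.07 and 2.97 in SNI and at 13.0, 12.3 and 11.8 in SNI + G15. The second SNI library stood apart from the other two in both transcripts. Csf1r was on the macrophage marker list, of which 11 of 12 genes were called higher in SNI than in sham by edgeR. Of all genes tested, 23.3% were called higher. The summed FPKM of the macrophage list was 521 to 577 in the sham libraries, 1137 to 1175 in those of SNI and 1290 to 1330 with G15. The part of these cells in the Csf1r shares was not tested.

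Prx encodes periaxin, a scaffold protein of myelinating Schwann cells. Its transcript XM_017589764.1 held 18.6%, 28.6% and 12.1% in sham, 54.8%, 52.4% and 31.4% in SNI and 35.6%, 59.6% and 19.9% in SNI + G15. Sham and SNI were separated by a gap of only 2.77 points, and SNI + G15 overlapped both. Its 3 transcripts had effective lengths of 4674, 4669 and 4669 bases, and the third, XM_017589763.1, lay at 20.4 FPKM in the first sham library and 31.8 FPKM in the third SNI + G15 library but at no more than 3.46 FPKM in the other 7. The whole gene was tight, at 105 to 113 FPKM in the sham libraries, 63.4 to 65.1 in those of SNI and 70.9 to 74.7 with G15. The summed FPKM of 9 markers of myelinating Schwann cells, Prx among them, was 2650.4 to 2712 in the sham libraries, 1626 to 1634 in those of SNI and 1768 to 1828 with G15. In SNI, 7 of the 9 were called lower than in sham, against 22.4% of all genes tested. No gene of either marker list was at 0 in all libraries, and the part of these cells in the Prx shares was not tested. Tinagl1, a secreted matrix-associated glycoprotein gene, had 22.2%, 20.4% and 62.2% for XM_006238978.3 in sham, 9.21%, 12.3% and 0% in SNI and 28.2%, 21.5% and 47.6% in SNI + G15, so that the third sham library stood apart. The difference of -27.8 points between SNI and sham was -14.1 points without that library.

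The largest difference of all was that of Suco, a gene of the rough endoplasmic reticulum that is needed for collagen secretion in bone. XM_006250164.3 held 44.4%, 0% and 0% in sham, 77.8%, 97.4% and 87.4% in SNI and 15.3%, 45.4% and 41.8% in SNI + G15. The sham libraries did not agree on what filled the rest. XM_006250166.3 lay at 3.36, 0 and 3.74 FPKM in sham, and XM_008769657.2 at 0, 4.93 and 0 FPKM. These 3 transcripts had effective lengths of 5348 to 5381 bases, and the whole gene lay between 5.15 and 6.51 FPKM in all 9 libraries.

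In 4 genes a few libraries decided the difference. Slc18a2 encodes the vesicular monoamine transporter VMAT2. Its XM_017588824.1 held 89.99% in the third SNI library and at most 2.51% in the other 8, and the nearest sham and SNI values were 0.137 points apart. XM_006231664.3, 7 bases longer in effective length, was at 0.40 FPKM in that library and between 6.00 and 9.01 FPKM in the others, while the whole gene lay between 7.37 and 7.59 FPKM in the 3 SNI libraries. Nfrkb, a subunit of the INO80 chromatin remodeller, had 83.3%, 21.2% and 14.4% for XM_006242757.3 in SNI, 0% in the 3 sham libraries and 0%, 17.4% and 0% in SNI + G15. Esf1, a nucleolar ribosome biogenesis gene, had 4.43%, 86.1% and 38.6% for NM_001100771.1 in sham, and the transcript was listed at 0 in all 3 SNI libraries. Abhd6, a hydrolase of the endocannabinoid 2-arachidonoylglycerol, had 75.5%, 0.085% and 36.8% for XM_006251768.3 in sham, and the transcript was likewise listed at 0 in all 3 SNI libraries. The difference between SNI and sham was 30.9 points for Slc18a2 and 1.68 points without the third SNI library. For Nfrkb it was 39.6 points and 17.8 points without the first SNI library, for Esf1 -43.0 points and -21.5 points without the second sham library, and for Abhd6 -37.4 points and -18.4 points without the first sham library. A value of exactly 0 can be a failed estimate of a transcript that shares nearly all its sequence with another, and 30 of the 73 transcripts were at 0 in at least 1 library.

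All 50 genes were ordered by textbook role, a grouping made after the values were seen. The counts below include genes described above, and genes with 2 transcripts, whose lead direction is arbitrary. Of 8 genes of chromatin and transcription, 4 lead transcripts were higher and 4 lower in SNI. Tada2a, an adaptor of histone acetyltransferase complexes, had 91.2%, 74.0% and 50.3% for NM_001012141.1 in sham and 33.5%, 0% and 41.7% in SNI. Its SNI + G15 values were 17.2%, 65.7% and 48.3%. In Zfp512b, a zinc finger gene, XM_008762512.2 held 6.94%, 21.6% and 7.80% in sham, 45.8%, 52.4% and 44.0% in SNI and 39.1%, 58.6% and 29.5% in SNI + G15. Its other transcript that met the rule, XM_008762513.2, was at 26.3%, 35.5% and 37.0% in sham and listed at 0 in the 3 SNI libraries. Dbp, a circadian PAR bZIP factor, had 100%, 96.0% and 100% for NM_012543.3 in sham and 60.4%, 67.0% and 80.1% in SNI, with NM_001289983.1 at a mean of 1.34% and 23.7%. In SNI + G15 the former held 95.8%, 72.9% and 83.6%. Dbp was named after its values were seen.

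The 4 genes of RNA processing were split evenly as well. The RNA helicase gene Ddx59 used NM_001190820.1 for 49.8%, 84.1% and 52.1% of its FPKM in sham and for 100% in each SNI library. In SNI + G15 it used that transcript for 100%, 89.8% and 78.8%. The 6 genes of the ubiquitin system gave 1 higher and 5 lower lead transcripts, with absolute differences of 25.1 to 36.6 points. Among them, the deubiquitinase gene Usp16 had 63.8%, 57.2% and 100% for XM_006248015.2 in sham and 18.8%, 43.2% and 49.1% in SNI, a difference of -36.6 points that was -23.5 points without the third sham library. The SNI + G15 libraries spread widely there, at 21.7%, 90.4% and 61.3%. Uchl5, a proteasome-bound deubiquitinase gene, had 37.5%, 54.9% and 63.3% for XM_006249960.3 in sham and 30.8%, 0% and 23.6% in SNI, a gap of 6.67 points. Its SNI + G15 values were 28.1%, 5.62% and 36.5%.

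Both adaptors of tumour necrosis factor receptors in the set, Tradd and Traf2, had small gaps. Tradd had 62.9%, 34.2% and 18.4% for XM_006255444.3 in sham and 13.8%, 0% and 0% in SNI, a difference of -33.9 points that was -21.7 points without the first sham library. With G15 the Tradd values were 24.3%, 14.9% and 46.3%. Of the 3 genes of the DNA damage response, Rad9a, a checkpoint clamp subunit, had 34.8%, 41.9% and 32.3% for XM_002728854.5 in sham, 62.6%, 83.0% and 59.6% in SNI and 35.9%, 60.4% and 60.03% in SNI + G15. Sham and SNI were 17.7 points apart there.

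Of 9 genes of lipid, sterol and endoplasmic reticulum function, 3 lead transcripts were higher and 6 lower in SNI. Alg1, a mannosyltransferase gene of protein N-glycosylation, turned from XM_006245802.3 at 59.0%, 69.4% and 80.8% in sham and 34.1%, 19.6% and 32.1% in SNI to XM_008767491.2 at 1.88%, 16.0% and 0% in sham and 37.8%, 57.2% and 48.2% in SNI. The SNI + G15 values of the latter were 21.8%, 43.9% and 53.8%. The 6 genes of membrane traffic gave 3 higher and 3 lower lead transcripts. Hip1r, a clathrin- and actin-binding protein gene, had 88.7%, 49.0% and 76.1% for NM_001134763.1 in sham and 40.8%, 32.3% and 17.4% in SNI. Its SNI + G15 values were 16.8%, 51.5% and 56.4%. Snx13, a sorting nexin gene with 2 transcripts, had 89.4%, 71.9% and 70.1% for XM_006240023.3 in sham and 57.8%, 31.2% and 46.6% in SNI. In SNI + G15 that transcript held 44.2%, 89.7% and 74.6%. Pheta1, which acts in endosomal traffic, had 26.0%, 53.7% and 39.2% for XM_002727967.4 in sham and 94.6%, 61.6% and 66.4% in SNI. With G15 the Pheta1 values were 63.9%, 17.5% and 56.0%. Of the others, Hspb11, a subunit of the intraflagellar transport machinery, had 90.8%, 58.9% and 70.6% for NM_001131002.1 in sham and 51.1%, 26.9% and 30.3% in SNI, and Fndc3a had 10.04%, 21.3% and 10.04% for XM_006252302.1 in sham and 65.9%, 23.9% and 45.7% in SNI. In SNI + G15 these transcripts held 60.2%, 82.1% and 64.2% (Hspb11) and 76.1%, 36.3% and 37.5% (Fndc3a).

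At the threshold, Uspl1 (lower by 25.1 points), Traf2 (higher by 25.2) and Vldlr, a lipoprotein and reelin receptor gene (lower by 25.4), lay just inside. Meis2 (lower by 24.8 points), Slc41a1 (lower by 24.6) and Slc29a1 (higher by 24.5) lay just outside. The signs give the direction in SNI relative to sham.

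The rule used the SNI + G15 libraries for the FPKM limit but did not use their shares. In these libraries the share of the lead transcripts had a median SD of 13.6 points over 3 libraries, against 4.19 points for the 12024 transcripts tested. Restricted to transcripts with a mean share of 10% to 90% in SNI + G15, the medians were 14.1 points for 47 lead transcripts and 5.25 points for 8403 tested transcripts. The genes thus varied more between libraries of a single group than transcripts at large, also where their sham and SNI values played no part. Their level was lower too, with a median of 8.99 FPKM against 18.3 FPKM in the 5144 eligible genes. Below 10 FPKM lay 29 of the 50 (58.0%) and 22.7% of the eligible genes. The median number of transcripts per gene was 4 in the set and 3 in the eligible genes, and 52 of the 73 transcripts (71.2%) had predicted accessions, against 64.7% of the transcripts tested.

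**Figure D5:**
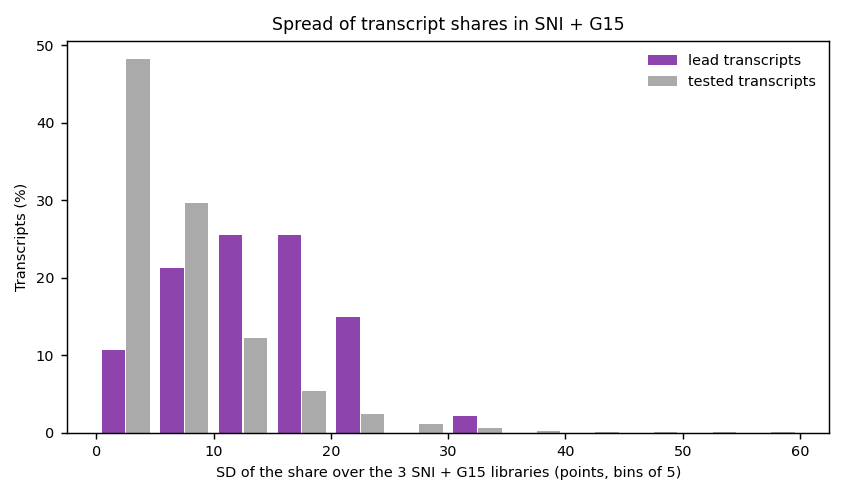
Percentage of transcripts (y axis) by the SD of their share over the 3 SNI + G15 libraries (percentage points, x axis), for lead transcripts and for all tested transcripts with a mean share of 10% to 90%. An SD under 5 points was found for 10.6% of the lead transcripts and 48.2% of the tested transcripts.

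The 2 transcripts with the highest mean share were also closer in effective length. They differed by a median of 92.5 bases in the 50 genes and by 239 bases in the 4188 eligible genes whose second transcript held at least 5%, and by under 100 bases in 30 of the 50 genes and in 30.0% of the eligible ones. In the 23 genes with 1 transcript in each direction, the transcript higher in SNI was the longer in 13 and the shorter in 10. Estimated counts were not whole in at least 1 library for all 73 transcripts and for 12016 of the 12024 tested. How reads that could belong to several transcripts were assigned is not given in the sources used here.

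Whether usage differed between SNI + G15 and SNI was tested over 12024 transcripts with limma, where 3 (0.025%) had an adjusted p under 0.05 and 681 (5.66%) an unadjusted p under 0.05. All 73 transcripts of the set were tested, and 1 was called. The SNI libraries that chose the set are part of this test. Neither a count of the set's transcripts nor any of their p-values can therefore be read as independent of the rule. The transcript called was Abhd6 XM_006251768.3, listed at 0 in the 3 SNI libraries and at 33.7%, 33.8% and 40.5% in SNI + G15 (adjusted p = 0.0319, limma). Its counterpart NM_001007680.1 went from 12.5, 12.5 and 13.2 FPKM in SNI to 7.57, 7.58 and 6.49 FPKM in SNI + G15, and the whole gene lay between 11.5 and 13.3 FPKM in all 9 libraries. The call was lost when any of the 6 libraries was left out (adjusted p of 0.0921 to 0.196, limma), and in the fit of all 9 libraries, where the wide sham values enter the spread (adjusted p = 0.673, limma). Esf1 NM_001100771.1, listed at 0 in SNI and at 76.7%, 49.5% and 74.6% in SNI + G15, had an adjusted p of 0.0654 in limma and of 0.0462 in edgeR's diffSpliceDGE.

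For the genes with tight sham and SNI groups, the differences between SNI + G15 and SNI were not called. They were +2.97 points for Hsd17b8, +4.34 points for Kcnip1 NM_022929.2, +1.56 points for Rabgap1l, -10.1 points for Fn1 and -0.678 points for Ksr1 (adjusted p of 0.890 to 0.954, limma). Csf1r differed by -25.0 points (adjusted p = 0.744, limma), although its SNI and SNI + G15 values did not overlap. The median absolute difference of the 50 lead transcripts was 13.4 points between SNI + G15 and SNI, and 15.8 points between SNI + G15 and sham. The SNI and sham values that chose these transcripts enter both medians, which are therefore not comparable with the median of 2.84 points over all transcripts tested between SNI + G15 and SNI. Shares of 12025 transcripts were simulated for SNI + G15 and SNI, each with the spread observed for it. Of these, 200 with an intermediate mean share were moved by 25 points. The limma fit recovered 20% with 4 false calls, so a difference of that size was not detectable in most of the moved transcripts. Recovery among transcripts with tight groups was not analysed separately, so the 20% does not describe the genes with tight sham and SNI groups.

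At the level of whole genes, edgeR's quasi-likelihood test called 20 of the 50 genes between SNI and sham (9 higher and 11 lower), where it called 45.7% of all 14305 genes. This contrast is the one that chose the genes, and nothing is read from that count. Between SNI + G15 and SNI it called 3 of the 50, all higher in SNI + G15, against 15.2% of the 14305 genes in either direction, 7.98% higher and 7.25% lower. Fn1 lay at 21.5, 21.1 and 21.9 FPKM in SNI and 31.1, 30.7 and 27.3 with G15, a log2 fold change of 0.48 ± 0.05 (SE, adjusted p = 0.000684, edgeR). Tinagl1 lay at 8.13, 8.80 and 7.98 FPKM in SNI and 10.4, 10.8 and 11.6 with G15, a log2 fold change of 0.42 ± 0.07 (SE, adjusted p = 0.00643, edgeR). Prx lay at 63.5, 63.4 and 65.1 FPKM in SNI and 71.9, 74.7 and 70.9 with G15, a log2 fold change of 0.19 ± 0.04 (SE, adjusted p = 0.0109, edgeR), and its call was lost without the first or the second SNI library (adjusted p = 0.0569 and 0.0637, edgeR). In each of the 3 genes, all SNI + G15 values lay above all SNI values. The summed FPKM of the 9 fibroblast markers was 473 to 475 in the SNI libraries and 643 to 667 with G15, and 8 of the 9 were called higher. Of the 9 Schwann cell markers, 6 were called higher as well, and the part of either cell type in these 3 genes was not tested.

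The genes that carry out splicing and 3′ end choice were examined in the same gene-level fits. Of 66 splicing regulators tested, 26 were called higher and 6 lower in SNI than in sham, against 23.3% and 22.4% of all genes. Their median log2 fold change was 0.12, that of all genes 0.00. Rbm38, an RNA-binding protein of splicing and mRNA stability, lay at 2.67, 2.82 and 3.16 FPKM in sham and 5.73, 6.72 and 6.14 in SNI, and Celf3, a neuronal CELF protein, at 2.89, 3.41 and 3.21 and 6.12, 5.71 and 6.24. Rbfox3, the splicing factor known as the neuronal marker NeuN, lay at 90.9, 81.2 and 94.4 FPKM in sham and 61.6, 58.7 and 60.6 in SNI. The log2 fold changes were 1.08 ± 0.10, 0.84 ± 0.08 and -0.56 ± 0.06 (SE), with adjusted p of 1.2e-05, 1.75e-05 and 4.87e-05 in edgeR. Hnrnpa2b1 and Hnrnpf, of the hnRNP family, rose by 0.36 ± 0.04 and 0.32 ± 0.04 (log2, SE, adjusted p = 3.51e-05 and 0.000186, edgeR). Rbfox3 was also on the sensory neuron list, whose summed FPKM was 17901 to 18295 in sham and 15859 to 16225 in SNI. Of its 16 genes, 9 were called lower and 3 higher, and the part of neuronal RNA content was not tested.

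Of 21 cleavage and polyadenylation factors, 6 were called, all of them higher in SNI, where 23.3% of all genes were called higher, and the median log2 fold change was 0.05. Pabpc1, a poly(A)-binding protein, rose by 0.40 ± 0.03 and the cleavage factor subunit Cpsf2 by 0.56 ± 0.06, while Papola, Cstf3 and Pcf11 rose by 0.17, 0.27 and 0.22 (log2, adjusted p at most 0.0220, edgeR). The call of Cstf3 was lost with DESeq2 (adjusted p = 0.0711), and that of Pcf11 with DESeq2, in the fit of all 9 libraries and without the second or the third library of sham or SNI (adjusted p of 0.0506 to 0.0943). Of 16 factors of nonsense-mediated decay, the pathway that removes transcripts with premature stop codons, only Smg1 (0.21 ± 0.04) was called higher and only Eif4a3 (-0.17 ± 0.06) lower (adjusted p = 0.00127 and 0.0261, edgeR), and the call of Eif4a3 was lost without the second or the third library of sham or SNI (adjusted p of 0.0624 to 0.0988, edgeR). Of 89 genes known from textbooks for their isoforms, 28 were called higher and 22 lower, against 23.3% and 22.4% of all genes, and 1 of the 89, Fn1, was in the set of 50. Between SNI + G15 and SNI, 5 of 66 splicing regulators were called lower (Rbm38, Mbnl1, Rbfox2, Elavl2 and Elavl4), a share near the 7.25% of all genes called lower. As many as 0 of the 66 were called higher, where 7.98% of all genes were. Of the 89 textbook isoform genes, 25 were called lower and 9 higher in this comparison, with a median log2 fold change of -0.10. Rbm38 lay at 3.55, 4.72 and 4.52 FPKM in SNI + G15, below all 3 SNI values and above all 3 sham values.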

How the data were processed

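Per the methods, DRG RNA was made into NEBNext Ultra libraries and sequenced as paired reads. The labels' extraction text names another cell type and kit, and the submitters' notes list mouse builds (GRCm38, mm10) although the identifiers are rat RefSeq accessions. The aligner, counter and annotation are not given in the sources used here, so no coordinates or transcript sequences are shown. The authors deposited FPKM and estimated counts per transcript and gene. The deposited TPM values and group averages were not used. Columns named Control were taken as sham.

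Shares were computed from FPKM. They were tested after an arcsine square-root transformation with limma 3.58.1 in R 4.3.3. Tested were transcripts with a mean share of at least 5% over all 9 libraries, of genes with at least 5 FPKM in all 9 libraries. Rounded estimated counts of genes that reached 1 FPKM in any library were tested with edgeR 4.0.16 (TMM, quasi-likelihood). P-values were two-sided and adjusted by Benjamini-Hochberg over all features. The scripts were tested on simulated data, where the gene-level fit recovered 100% of 200 genes changed by 1 on the log2 scale among 14305, with 18 false calls. These counts were drawn with the same small fixed dispersion for every gene, and only genes above a low mean count were changed. The 100% is thus a check of the script and does not describe recovery in the real libraries. Alternatives used DESeq2 1.42.0, diffSpliceDGE, other filters, a replicate block and each library left out. Effective length was the estimated count divided by FPKM and library total. Gene IDs of all 50 genes matched the RefSeq table of GRCr8, used for names only, and 46 of the 73 transcript accessions were in it.

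The genes, the lists and the tests were chosen with earlier results of these data known. Named were the 20 largest differences, list members, called members, 3 genes on either side of the threshold, the 5 smallest adjusted p of each regulator list and the check genes. A gene that this rule selects is not reported here, and it was left out of its marker list.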

Additional observations from a re-analysis of the deposited data

How the results depend on the processing

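The number of genes that met the rule was 98 with a least difference of 20 points, 25 with 30 points, 183 with a summed FPKM of at least 1 and 19 with at least 10. With 1 sham or SNI library left out it lay between 71 and 90, since fewer values had to be apart, and 38 to 42 of the 50 genes remained in such a set. The genes lost differed between these sets. Only 16 of the 50 met the rule in all 6 of them, and 17 were lost in at least 2. With shares from estimated counts 52 genes met the rule, 46 of the 50 among them. Transcripts called between SNI and sham numbered 7 with untransformed shares, 12 with diffSpliceDGE and 13 with all 9 libraries in 1 fit, and 0 to 3 with 1 library left out (2 without the first SNI library, 3 without the second). Between SNI + G15 and SNI they numbered 13 with diffSpliceDGE and 0 with untransformed shares, with all 9 libraries in 1 fit and, lowest and highest, with any 1 library left out (0 to 0). Genes called at the gene level lay between 893 and 2333 for SNI + G15 versus SNI with 1 library left out (1098 without the first SNI library, 925 without the second and 893 without the third) and between 5382 and 6237 for SNI versus sham.

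Replicate numbers did not pair the samples: the deviations of same-numbered libraries correlated with r between -0.25 and 0.11, and 1 of 9 pairs exceeded 0.1. With a replicate block, 0 transcripts were called between SNI + G15 and SNI, 1292 genes were called between SNI + G15 and SNI, and 6440 genes between SNI and sham. Prx was not called under the block (adjusted p = 0.0542, edgeR), and Abhd6 neither (adjusted p = 0.786, limma).

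The share differences between SNI and sham of the 50 lead transcripts could not change direction when 1 library was left out, since the rule keeps the groups apart, and such values are no sign of stability. Beside the genes named in the results, the difference moved by over 1.5 times without the third sham library in Atg9a (-30.5 to -18.4 points) and without the third SNI library in Dnajc14 (-25.6 to -13.8 points). From estimated counts, 49 of 50 differences moved by less than the SD within groups, and that of Rabgap1l was 32.2 points from counts and 27.4 points from FPKM. The Ksr1 difference between SNI + G15 and SNI lay between -1.05 and 0.0592 points with 1 library left out, and turned to 0.0592 without the first SNI library. The causes were not tested. How many reads tell a transcript from its nearest neighbour was not analysed here.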
